A study of Mus musculus with 4 samples.

Results

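Circular RNAs (circRNAs) of the mouse lung were compared across birth, in the alveolar library (newborn day 7.5) against the terminal sac library (embryonic day 18.5). The series holds 4 libraries, 1 for each stage, made from total RNA of C57BL/6 lung tissue extracted with TRIzol. The other 2 are the pseudoglandular (embryonic day 14.5) and canalicular (embryonic day 16.5) libraries, given here for context. No mutation, transgene or treatment is named for any sample, and the number of animals behind each library is not in the labels. Since each stage has a single library, differences have no replicate check, no p-value is given, and what is compared is a pair of libraries and not the stages as such. The 95% intervals cover counting error of reads only, and reads copied by PCR are not independent molecules.

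The alveolar library listed 4474 circRNAs with 28332 junction reads (reads that cross the back-splice junction), and the terminal sac library listed 5564 with 36156. Together they listed 8377 circRNAs, of which 1661 were in both lists, among 13499 in the whole series. A circRNA was compared when the pair held 10 or more of its junction reads, which left 1123. Of these, 1000 were listed in both libraries, 35 in the alveolar library alone and 88 in the terminal sac library alone. At the edge of that minimum lay 119 circRNAs with exactly 10 reads, which were kept, and 124 with exactly 9, which were not. The 1123 held 64.5% of the alveolar and 61.2% of the terminal sac junction reads. As a check of the labelled tissue, the surfactant protein C gene Sftpc gave 1 of the most abundant circles of both libraries, with 521 alveolar and 372 terminal sac reads.

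A circRNA forms when the splice donor at the end of an exon is joined backwards to the splice acceptor of the same or an earlier exon, so that the ends of the RNA are closed. The first exon of a gene has no acceptor, and many abundant circles therefore begin at the second exon. Circles resist exonucleases that degrade linear RNA from its ends, and they tend to persist in cells that divide rarely. Between the terminal sac stage and the alveolar stage the lung takes its first breath, type 2 cells secrete surfactant, and septa that carry elastin and myofibroblasts begin to divide the air sacs.

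The junction itself is what a circRNA read shows, and the sequences below are the 20 bases before and the 20 bases after it for circles on which the results turn. They were read 5′ to 3′ in the direction of transcription from GENCODE M21 transcripts on build mm10. Capitals mark bases that stand at both ends of the circle in the linear transcript, a direct repeat within which the join cannot be placed. The first 3 lines belong to the most abundant alveolar circle, elastin (Eln) exons 17 to 22 at chr5:134715684-134719222 on the minus strand.
Eln back-splice junction: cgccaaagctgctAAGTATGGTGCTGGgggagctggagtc
Eln linear transcript at the first base of the circle: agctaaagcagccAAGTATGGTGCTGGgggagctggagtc
Eln linear transcript at the last base of the circle: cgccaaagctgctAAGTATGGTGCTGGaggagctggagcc
Crip2 exons 2 to 4, chr12:113143459-113144297, plus strand: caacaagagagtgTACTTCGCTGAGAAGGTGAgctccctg
Col4a1 exons 24 to 27, chr8:11223576-11231441, minus strand: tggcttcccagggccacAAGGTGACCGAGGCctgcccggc

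The next set, shown for contrast, holds circles whose ends share few bases. All were called higher or lower except the shorter Strn3 circle, which is set beside the longer one. The 2 Strn3 circles use the same acceptor at exon 2 and different donors, so their right-hand 20 bases are the same.
Pde5a exons 7 to 12, chr3:122781567-122818067, plus strand: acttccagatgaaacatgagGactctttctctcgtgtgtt
Trpc6 exons 4 to 10, chr9:8634047-8658377, plus strand: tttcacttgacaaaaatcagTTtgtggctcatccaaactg
Lamp3 exons 2 to 5, chr16:19673391-19701382, minus strand: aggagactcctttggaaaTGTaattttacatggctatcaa
Strn3 exons 2 to 7, chr12:51647994-51661713, minus strand: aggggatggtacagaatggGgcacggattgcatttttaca
Strn3 exons 2 to 16, chr12:51619814-51661713, minus strand: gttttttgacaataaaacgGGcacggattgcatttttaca
Bub1b exons 17 to 19, chr2:118631759-118635277, plus strand: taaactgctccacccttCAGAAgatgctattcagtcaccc

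The repeat at the Eln ends is 14 bases long, that of Crip2 19 and that of the Col4a1 circle 14, against 1 base for Pde5a and for the shorter Strn3 circle. Across all libraries a circle was set apart as repeat-end when the repeat was 6 bases or more. It was set apart as few-pattern when its reads aligned in fewer than 50% as many distinct ways as the median of the 15 circles nearest to it in read count. Circles of either kind held 14.4% of alveolar and 6.32% of terminal sac junction reads, and the Eln circle alone held 5.81% of the alveolar reads. The 10 most abundant circles held 16.3% of alveolar reads against 8.65% of terminal sac reads. Such circles are called marked below. What part end repeats and alignment have in their reads was not tested, and list counts without them are given where they differ.

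Among circles with reads in both libraries, those of Fat3, Pde5a, Trpc6, Jup and Lamp3 took a larger share in the alveolar library, and those of Phf21a, Rreb1, Bub1b, Hdgfl3 and Strn3 (exons 2 to 16) a smaller one. Shares of each library's listed junction reads were compared as a ratio, alveolar over terminal sac. The calls higher and lower needed a 2-fold or larger ratio with an interval clear of 1. By this rule 118 of the 1123 circles were higher (10.5%) and 176 lower (15.7%), or 26.2% either way. Among the 1000 listed in both libraries, 83 were higher (8.3%) and 88 lower (8.8%). Circles listed in 1 library reach the 10-read minimum through that library, which fixes their direction. Set against a floor of 3 reads in the other library they always pass 2-fold, so all 35 and all 88 are called. The text therefore leads with those listed in both. Over the 1000 the median ratio was 0.893 and 563 lay below 1. Scaling by the median of ratios adds 0.163 to every log2 ratio and gives 140 higher and 153 lower. In whole lung, fewer cells of a type and less RNA per cell cannot be told apart.

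**Figure D1:**
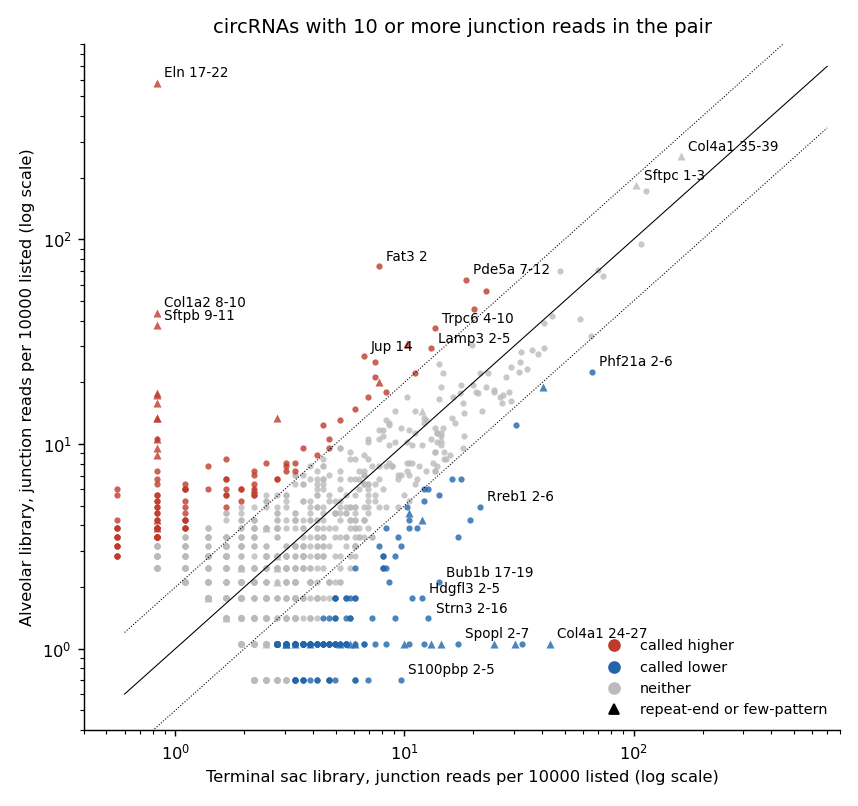
Junction reads per 10000 listed in the alveolar library (vertical, log scale) against the terminal sac library (horizontal, log scale) for 1123 circRNAs, 1 point each. A circle not listed in a library is drawn at its floor of 3 reads, the solid line marks equal shares and the dotted lines 2-fold, numbers after a gene name are exons, and Fat3, Pde5a and Trpc6 stand above the upper dotted line while Phf21a and Rreb1 stand below the lower one.

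Circles of Pde5a, which encodes the phosphodiesterase that breaks down cyclic GMP in smooth muscle, were higher at several junctions. The circle of exons 7 to 12 had 180 alveolar reads against 67 terminal sac reads, after 32 and 42 in the 2 earlier libraries, a 3.43-fold higher share (2.58 to 4.61). The exon 2 circle had 159 alveolar reads against 82 (2.47-fold, 1.88 to 3.27). All 4 libraries listed both circles, and the alveolar values were the highest of the 4. The circle of exons 8 to 12 had 71 alveolar reads against 27 (3.36-fold), that of exons 8 to 11 had 51 against 30 (2.17-fold) and that of exons 4 to 12 had 17 against 8 (2.71-fold). Of 8 Pde5a circles compared, these 5 were higher and 3 were neither, with 3 alveolar reads against 9 for exons 2 to 7, 12 against 10 for exons 4 to 11 and 5 against 7 for exons 4 to 9. The circle of exons 4 to 12 is repeat-end, as is that of exons 2 to 7.

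Linear reads at the Pde5a ends were more numerous in the alveolar library as well. Reads aligned linearly across the ends of the exon 7 to 12 circle, called non-junction reads, numbered 3389 in the alveolar and 1392 in the terminal sac library, whose totals of such reads were 2852933 and 3799337. The odds of junction to non-junction reads were 1.10 times as high in the alveolar library (0.82 to 1.46). Over all its circles the host gene Pde5a had 518 alveolar reads against 255, a 2.59-fold higher share (2.23 to 3.02).

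Trpc6, Prkce and the unhosted Slc8a1 circle were also higher, as was Cacna1c by its host sum. Trpc6 encodes a cation channel of vascular smooth muscle, and its circle of exons 4 to 10 had 104 alveolar reads against 49 (2.71-fold, 1.91 to 3.89). The series before it was 18 pseudoglandular and 25 canalicular reads, so the alveolar library was the highest of the 4. Prkce, protein kinase C epsilon, had 48 alveolar reads against 25 in its circle of exons 7 to 10 (2.45-fold, 1.48 to 4.15). Cacna1c, the pore subunit of the L-type calcium channel, was higher as a host, with 116 reads against 73 (2.03-fold, 1.5002 to 2.76). Its most abundant circle, exons 2 to 3, had 70 reads against 51, a ratio of 1.75 that did not reach 2-fold. An exon 2 circle of the sodium-calcium exchanger gene Slc8a1 at chr17:81647809-81649638, which the files give no host, had 129 alveolar reads against 73 (2.26-fold, 1.68 to 3.05). Slc8a1 was not at its highest after birth, since the pseudoglandular library held 165 reads of that circle.

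The interval farthest above 1 among circles listed in both libraries belonged to a circle without a deposited host at chr9:16374949-16378254. The M21 annotation places it at exon 2 of Fat3, which encodes an atypical cadherin. It had 209 alveolar reads against 28, after 18 and 9 in the earlier libraries, a 9.53-fold higher share (6.402 to 14.7). Non-junction reads at its ends were 297 and 54, and the odds ratio was 1.35 (0.83 to 2.19). A circle within exon 14 of Jup (plakoglobin of desmosomes and adherens junctions) had 76 alveolar reads against 24 (4.04-fold, 2.52 to 6.69). Neither end of the Jup circle lies at an annotated exon boundary, and the canalicular library held 52 of its reads.

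Further circles were higher in the alveolar library, most of them with low terminal sac counts and wide intervals. Unc5c, a netrin receptor gene, had 17 reads against 2 (10.8-fold, 2.57 to 96.8), and Rsu1, of integrin adhesion complexes, had 16 against 2 (10.2-fold, 2.40 to 91.5). Tbc1d14 had 18 against 3, the Rap regulator gene Sipa1l1 22 against 5, and Adgrl3 exon 6, of the adhesion receptor latrophilin-3, 18 against 4. The leucine-rich repeat gene Lrch1 had 60 against 27 (2.84-fold, 1.77 to 4.65), and its series over the 4 stages was 15, 10, 27 and 60 reads. Dysf (dysferlin), the chromatin gene Baz1b and the phosphatase gene Ptpn14 had 17 against 4 each. Baz1b and Ptpn14 show that a call for the pair need not hold for the whole series, with 16 and 12 reads of Baz1b and 8 and 20 of Ptpn14 in the 2 earlier libraries. Insr exon 2, of the insulin receptor, had 63 against 40, a ratio of 2.01 (1.33 to 3.07) at the edge of the rule, which came to 1.996 with neighbouring junctions merged. Pecam1, an adhesion molecule of endothelial cells, had 27 against 13 in its circle of exons 8 to 13 (2.65-fold, 1.32 to 5.59).

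**Figure D2:**
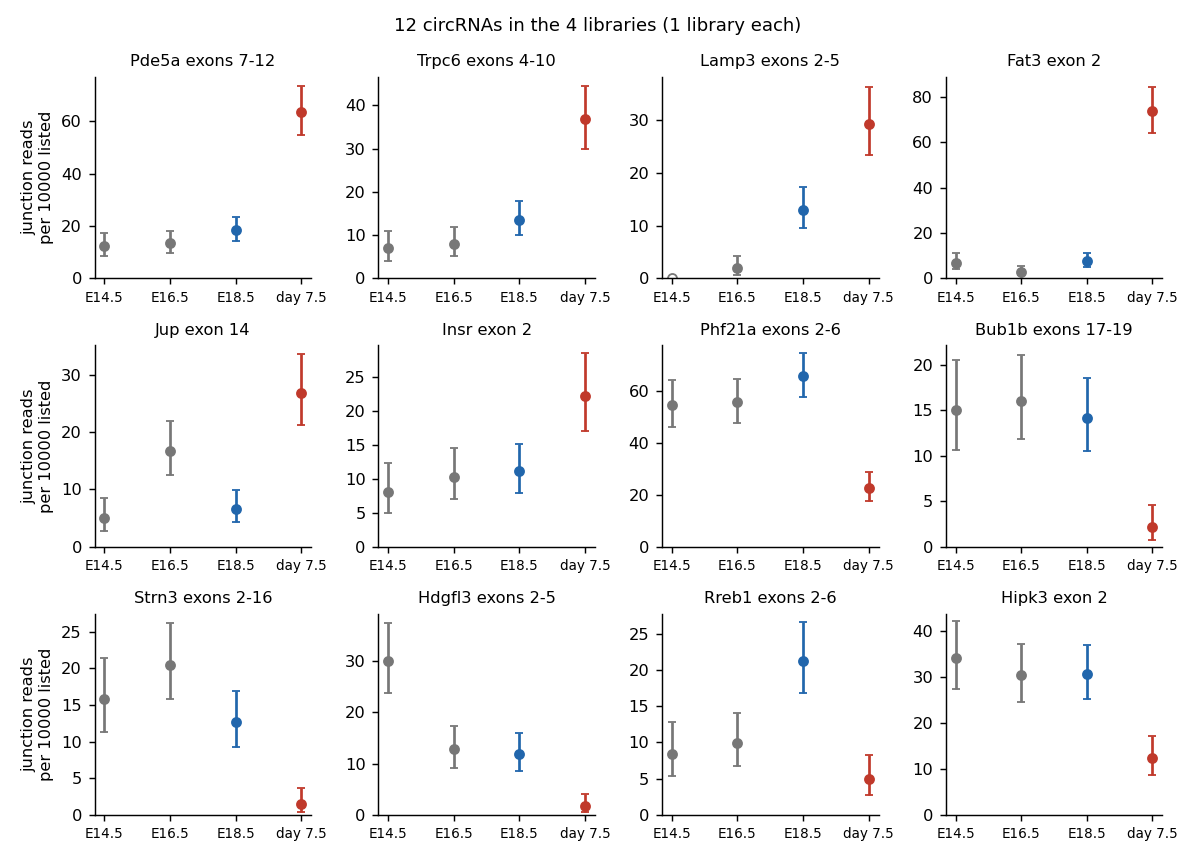
Junction reads per 10000 listed (vertical, from 0) of 12 circRNAs in the 4 libraries in order of stage, with exact 95% Poisson intervals; an open circle means not listed. Red marks the alveolar and blue the terminal sac library. The alveolar point is the highest of the 4 for Pde5a, Trpc6, Lamp3, Fat3, Jup and Insr. It is the lowest of the 4 for Phf21a, Bub1b, Strn3, Hdgfl3, Rreb1 and Hipk3.

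Surfactant-related circles rose at Lamp3, the gene of a membrane protein of lamellar bodies, in which surfactant is stored. Its circle of exons 2 to 5 had 83 alveolar reads against 47, after 0 and 6 earlier, a 2.25-fold higher share (1.56 to 3.30). Its circle of exons 4 to 5 had 27 against 17 (2.03-fold, 1.07 to 3.96). Non-junction reads went the other way at both: 2956 alveolar against 6251 terminal sac reads at the longer circle and 2066 against 3995 at the shorter. The odds ratio was therefore 3.72 (2.60 to 5.32) for exons 2 to 5 and 3.04 (1.66 to 5.55) for exons 4 to 5. By that interval the longer Lamp3 circle had the clearest rise in junction ratio of all circles with a deposited host. The Sftpc circle, which is few-pattern and has 1 of its ends at an exon boundary, had a ratio of 1.79 (1.56 to 2.05), under 2-fold, and of 2.001 under median-of-ratios scaling.

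Circles of elastin and fibrillar collagens were among the most abundant of those listed in the alveolar library alone. Eln exons 17 to 22 had 1646 alveolar reads and was not listed in the other 3 libraries, at least 700-fold higher with the terminal sac library at a floor of 3 reads. Col1a2, a chain of collagen type I, had 124 alveolar reads of exons 8 to 10 (at least 52.8-fold). Col5a1 had 50 reads (at least 21.3-fold), and Crip2, of a small LIM-domain protein, 49 (at least 20.8-fold). Col3a1 and the hemicentin gene Hmcn1 had 38 each (at least 16.2-fold). The 6 circles just named are all repeat-end or few-pattern. A second Eln circle, of exons 19 to 22, shares the exon 22 end and is both repeat-end and few-pattern. It was listed in both libraries, with 3 alveolar reads against 36 (9.40-fold lower, 2.97 to 47.7). Fbn1, fibrillin-1 of microfibrils, was listed in both libraries with 57 alveolar reads against 28 at exons 47 to 48 (2.60-fold, 1.63 to 4.24), and it is few-pattern.

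Circles of Sftpb, Slc34a2, Radil and Col6a2 were also listed in the alveolar library and not in the terminal sac library. Sftpb, of surfactant protein B, had 108 (at least 45.9-fold, few-pattern), and the phosphate transporter gene Slc34a2 of type 2 cells had 27 (at least 11.5-fold, repeat-end). Radil, an effector of the small GTPase Rap, had 19 (at least 8.08-fold) and Col6a2 15 (at least 6.38-fold), and neither of these is marked. A circle without a deposited host at chr3:107966087-108012778 had 30 (at least 12.8-fold). Of the 35 circles of this kind 13 were marked, 21 had 10 to 15 reads and 17 were listed in an earlier library, among them an intronic Ptprm circle with 21 alveolar and 26 pseudoglandular reads.

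Circles of Bub1b, Bard1 and Ezh2 fell in the alveolar library. Bub1b, a kinase of the spindle checkpoint, had 6 alveolar reads against 51 of its exon 17 to 19 circle, a 6.66-fold lower share (2.86 to 18.99), after 39 and 50 in the 2 earlier libraries. Bard1, the partner of Brca1 in DNA repair, had 2 against 22 (8.62-fold lower, 2.12 to 75.6). Ezh2, the histone methyltransferase of Polycomb complex 2, had 2 against 25 at exons 2 to 8 (9.80-fold lower, 2.44 to 85.3). The other Ezh2 circles compared were neither higher nor lower. Exons 2 to 15 had 7 reads against 21 (ratio 0.43, 0.15 to 1.04), the more abundant circle of exons 2 to 3 had 38 against 58 (0.84, 0.54 to 1.28) and exons 4 to 8 had 10 against 5 (2.55, 0.79 to 9.52).

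Phf21a, Hipk3, Rreb1, Atxn1, Tasp1 and Smad1 gave further lower circles. Phf21a, of a histone-demethylase complex, had 64 alveolar reads against 238 of its exon 2 to 6 circle (2.91-fold lower, 2.20 to 3.90), the lower circle with the most reads in the pair. Its 2 earlier libraries held 142 and 174 reads. Hipk3 exon 2, from a kinase gene whose exon 2 circle is widely described, had 35 against 111 (2.49-fold lower, 1.69 to 3.75), after 89 and 95. Rreb1, a zinc-finger transcription factor gene, had 14 against 77 (4.31-fold lower, 2.42 to 8.25), and here the terminal sac library stood above the 22 and 31 reads of the earlier ones. Atxn1 (ataxin-1) likewise had 4 against 33, with 5 and 0 earlier. The protease gene Tasp1 had 5 against 39, and Smad1 exon 2, of a transducer of BMP signals, 8 against 29 (2.84-fold lower, 1.27 to 7.19).

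Apart from the Eln circle of exons 19 to 22 given above, the remaining leading lower circles came from S100pbp, Hdgfl3, Mpp6, Arhgap32, Gbe1 and Ptpn4. S100pbp had 2 alveolar reads against 35 (13.7-fold lower, 3.52 to 118) and Hdgfl3 5 against 43 (6.74-fold lower, 2.68 to 21.8). The scaffold gene Mpp6 had 10 against 62 (4.86-fold lower, 2.47 to 10.6) and Arhgap32 3 against 30. The glycogen branching enzyme gene Gbe1 had 12 against 70 (4.57-fold lower, 2.46 to 9.27), and the phosphatase gene Ptpn4 3 against 27. Hdgfl3 had already passed its highest value, with 78 pseudoglandular and 40 canalicular reads. Gbe1 had its highest value in the terminal sac library, after 10 and 27.

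In Strn3, of a striatin scaffold of phosphatase 2A, 2 circles of different length had different ratios. The alveolar library listed 7 Strn3 circles and the terminal sac library 11, and whether length has a part was not tested. The circle of exons 2 to 16, 1852 bases when spliced, had 4 alveolar reads against 46 (9.01-fold lower, 3.29 to 34.5), after 41 and 64. The circle of exons 2 to 7, 703 bases, had 268 against 389, a ratio of 0.88 (0.75 to 1.03), after 247 and 349. Both begin at the same acceptor, shown in the sequences above, and their intervals do not overlap. In Ttc3, exons 2 to 10 had 16 against 51 (2.50-fold lower), exons 10 to 45 had 2 against 18 (7.05-fold lower) and exons 2 to 11 had 95 against 235, 1.94-fold lower and just under the rule.

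In 5 hosts 1 circle was called higher and another lower, and in 3 of these (Atrnl1, Kansl1l and Rabep1) such a pair was listed in both libraries. In Atrnl1, 3 circles share the acceptor of exon 22. Exons 22 to 26 had 13 alveolar reads against 3 (5.53-fold higher, 1.52 to 30.3), exons 22 to 25 had 3 against 15 (3.92-fold lower, 1.11 to 21.1) and exons 22 to 24 had 4 against 11 (2.15-fold lower, 0.64 to 9.28, not called). In Kansl1l a circle at chr1:66772906-66807604 had 16 against 3 (6.81-fold higher), while exons 2 to 5, with the same donor, had 10 against 34 (2.66-fold lower). In Rabep1 exons 6 to 13 had 8 against 2 (5.10-fold higher, 1.02 to 49.3) and exons 2 to 3 had 9 against 28 (2.44-fold lower, 1.12 to 5.87). The remaining 2 hosts were Eln and Col4a1, and Col4a1 had 87 against 37 reads of exons 24 to 26 (3.001-fold higher) and 0 against 156 of exons 24 to 27 (at least 40.7-fold lower), both few-pattern.

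Circles listed only in the terminal sac library include some that rest on reads counted more than once. The alveolar list put 14 read names under more than 1 circRNA and the terminal sac list 265. Of these, 12 and 262 stood under junctions with both ends within 5 bases of each other. Nlrp5-ps, a pseudogene, had 118 reads at chr7:14578732-14609335, at least 30.8-fold lower, yet 116 of those names also stood under the junction 14578736-14609339, which had 83 alveolar reads against 147. Counting each name once gave 83 alveolar against 149 terminal sac reads, neither higher nor lower. All 38 reads of a second Gbe1 junction, all 20 of a second Lrp6 junction and 16 of 16 at a second S100pbp junction were shared with the listed neighbour in the same way. The calls for Gbe1 and S100pbp given above were for the junction with more reads.

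Among the other circles listed only in the terminal sac library, Spopl exons 2 to 7, of an adaptor of cullin-3 ubiquitin ligase, had 62 reads (at least 16.2-fold lower). Spopl had 30 pseudoglandular and 0 canalicular reads, so it was not listed in every earlier library either. A circle of Morc3 had 44 (at least 11.5-fold lower) and 84 and 152 earlier, so all 3 foetal libraries listed it. Zfp638 exons 3 to 21 had 24 (at least 6.27-fold lower), with 3 and 16 earlier. Gm20425 had 89 reads, Os9 52, Dvl2 47 and the apolipoprotein gene Apoa2 21, all few-pattern and listed in no other library at these coordinates. Of the 88 circles of this kind 12 were marked, 61 had 10 to 15 reads and 53 were listed in an earlier library.

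The junction ratio sets a circle against linear RNA at its ends, as junction reads times 2 over that number plus non-junction reads. The median over the 1000 was 5.3% in the alveolar and 6.9% in the terminal sac library. By the odds of junction to non-junction reads 36 circles were higher (3.6%) and 197 lower (19.7%), the median odds ratio was 0.709, and 678 of 1000 lay below 1. Relative to that median 90 were higher and 75 lower. Over the 735 circles listed in all 4 libraries the median junction ratio was 5.1%, 5.8%, 9.0% and 6.3% in order of stage, with the terminal sac library the highest. These circles were kept for their reads in the later pair, which can raise both of its medians.

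**Figure D3:**
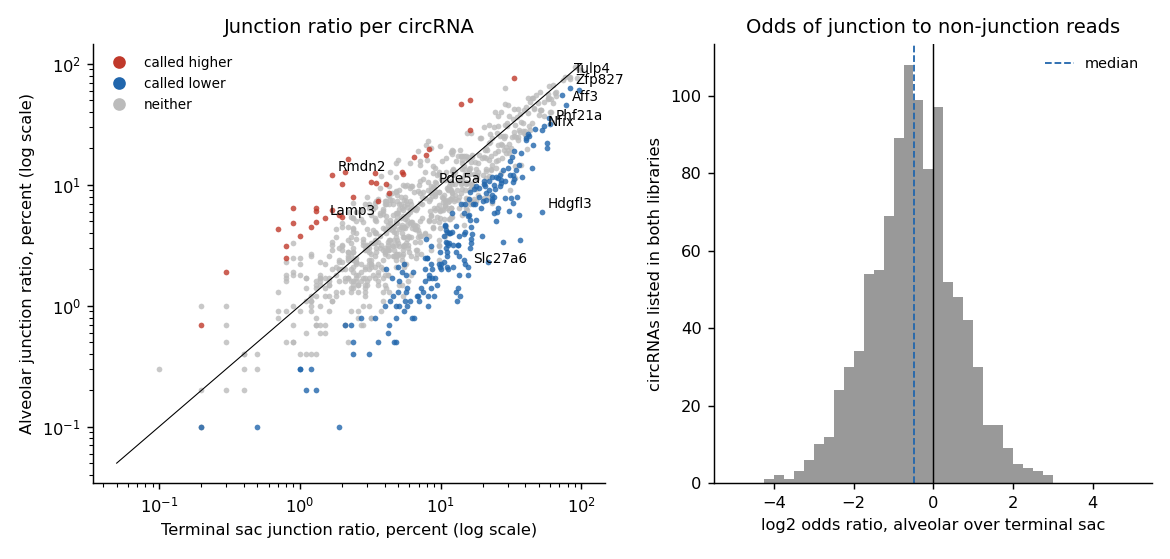
Left, junction ratio in percent of each of the 1000 circRNAs listed in both libraries, alveolar (vertical) against terminal sac (horizontal) on log scales, coloured by the call on the odds ratio. Right, number of these circRNAs by log2 odds ratio, where 678 lie left of 0 and the dashed line is the median.

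Calls by share and by odds can be set side by side for the circles listed in both libraries. Both use the same junction reads, so these calls are not independent of each other. Over all 1000 circles 19.7% were lower by odds and 3.6% higher. Of the 88 circles with a lower share, 75 also had lower odds and 13 did not pass. Of the 83 with a higher share, 28 had higher odds, 55 did not pass and 0 had lower odds. At Hdgfl3 the circle had 5 alveolar reads against 43 while non-junction reads were 156 against 77, an odds ratio of 0.063 (0.025 to 0.16). Slc27a6, of a fatty-acid transport protein family, had 19 junction reads against 64 and 1761 non-junction reads against 692 (odds ratio 0.12, 0.071 to 0.20). In both genes linear reads were more numerous and circular reads fewer in the alveolar library.

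Some circles fell by odds and not by share. Aff3 exons 2 to 4 had 63 alveolar reads against 77, a share ratio of 1.04 (0.74 to 1.48), with 150 non-junction reads against 43 and an odds ratio of 0.24 (0.15 to 0.38). Nfix exon 2, of a nuclear factor I transcription factor, had 199 against 172 (share ratio 1.48, 1.20 to 1.82) and 1005 non-junction reads against 312 (odds ratio 0.36, 0.28 to 0.46). Zfp827 exons 6 to 8 had 188 against 266 (0.90, 0.74 to 1.09) with an odds ratio of 0.34 (0.25 to 0.46). Besides Lamp3, the circles with higher odds included Rmdn2 exons 3 to 10, with 15 junction reads against 4 and 217 non-junction reads against 457 (odds ratio 7.25, 2.51 to 20.95), and Ubn2 exons 4 to 7, with 19 against 6 (3.82, 1.55 to 9.43).

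Lower and higher circles were described by where they begin and how far they reach. Among the 916 circles listed in both libraries with both ends at exon boundaries, 42.2% began at the second exon of the annotated transcript. The share was 69.1% of those lower (56 of 81), 32.4% of those higher (22 of 68) and 40.3% of those neither (309 of 767). With 20 or more reads in the pair the shares were 67.2%, 31.8% and 46.4% in the same order. By junction ratio 115 of 183 lower circles (62.8%) and 10 of 31 higher ones began there. The genomic span had a median of 12.8 kb in lower circles, 5.58 kb in higher and 8.78 kb in neither, while the median spliced length was 519, 614.5 and 617 bases. Bub1b, Gbe1, Arhgap32 and Ptpn4 are lower circles that begin further in, and Fat3, Slc8a1, Insr and Lamp3 are higher ones that begin at exon 2. Exon numbers depend on the transcript chosen, and circles of 1 gene share linear RNA, so no test was made.

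Of the 10 circles with most reads in the pair, that of Eln alone was called by share. By junction ratio Zfp827, Nfix, Ttc3 and Mettl9 were lower, by 2.57-fold to 2.93-fold. In 51 circles the whole interval of the share ratio lay between 1/2 and 2. Ube2k exons 2 to 6, of a ubiquitin-conjugating enzyme, had 200 alveolar reads against 253 (ratio 1.01, 0.83 to 1.22), and Ankib1 exons 2 to 5 120 against 159 (0.96, 0.75 to 1.23). Tulp4, of the tubby-like family, had 489 against 409 (1.53, 1.34 to 1.74). Mettl9 exons 2 to 4 had 115 against 210 (0.70, 0.55 to 0.88). Tulp4 and Mettl9 thus differed by more than counting error and by less than 2-fold. The exon 35 to 39 circle of Col4a1, a chain of basement-membrane collagen type IV, had 722 against 583 (1.58, 1.42 to 1.77) and is few-pattern.

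Junction reads were also summed by host gene, for 1199 hosts with 10 or more reads in the pair. Of these 145 were higher (12.1%) and 195 lower (16.3%), or 108 (9.96%) and 117 (10.8%) of the 1084 with reads in both libraries. A host with reads in 1 library alone always passes 2-fold against the floor of 3 reads, so its call is fixed by the rule. The median log2 ratio over all hosts was -0.18 with 0.5 reads added (-0.23 with unlisted hosts at their bound). Gene lists below were chosen with earlier results of these data known, so their counts are descriptions, to be read beside the host percentages just given.

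Of 5 smooth muscle, pericyte and myofibroblast hosts 3 were higher (Pde5a, Trpc6 and Prkce) and 0 lower, and the list held 2.49% of alveolar reads (2.31 to 2.68) against 1.01% of terminal sac reads (0.91 to 1.12). Its median log2 ratio was 1.07, or 1.08 with unlisted hosts at their bound. The coactivator gene Myocd, with 13 reads against 16, and the cyclic GMP-dependent kinase gene Prkg1, with 10 against 7, were neither higher nor lower. Pde5a supplied 518 of the list's 706 alveolar reads and 255 of its 366 terminal sac reads. Circles of the markers Acta2, Myh11 and Tagln were not among the hosts compared.

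Of 6 endothelial hosts 3 were higher and 0 lower, or 2 and 0 of the 5 with reads in both libraries. The median was 0.90 (0.91 at the bound). Over all its circles Pecam1 had 39 alveolar reads against 22 (2.26-fold, 1.31 to 4.01). Tek, which encodes a receptor for angiopoietins, had 12 against 2. Calcrl, of a receptor for adrenomedullin, had 14 against 0 (at least 5.96-fold). Prex2 (63 against 55) and Adgrf5 (11 against 9) were neither higher nor lower. Ldb2 went the other way without being called, with 7 against 21 (2.35-fold lower, 0.96 to 6.55). Of 3 type 1 cell hosts Radil alone was higher (19 against 0), and Rtkn2 (12 against 7) and Lmo7 (11 against 11) were neither.

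Of 9 elastic fibre and fibrillar matrix hosts 8 were higher and 0 lower, or 5 and 0 of the 6 with reads in both libraries. The list held 7.26% of alveolar reads (6.96 to 7.57) against 0.365% (0.306 to 0.433). Without marked circles the list held 0.367% of alveolar reads against 0.159%, and 2 of 5 hosts were higher. Unmarked reads were 13 alveolar against 12 terminal sac for Eln and 18 against 16 for Col5a1, ratios of 1.51 and 1.57 that did not pass. Ltbp1, which tethers latent TGF-beta to microfibrils, had 16 unmarked reads against 4 (5.10-fold, 1.65 to 20.98), after 27 and 20 in the 2 earlier libraries, so the terminal sac value was the lowest of the 4. Of 5 basement-membrane hosts Hmcn1 and Frem1 were higher and Col4a5 lower (0 against 13), and Frem1, of an extracellular matrix protein of epithelia, had 34 against 9, of which 31 and 9 were unmarked. Without marked circles 1 of 3 basement-membrane hosts was higher and 1 lower, and the list held 0.260% of alveolar reads against 0.171%, in place of 3.66% against 2.80%.

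Of 5 type 2 cell hosts 3 were higher and 1 lower, or 1 and 1 of the 3 with reads in both libraries. The list held 2.77% of alveolar reads against 1.33%. Without marked circles it held 0.536% against 0.322%, and 1 of 2 hosts was higher and 0 lower. That host was Lamp3, with 110 reads against 64 (2.19-fold, 1.60 to 3.03). Atp8a1, a phospholipid flippase gene, was lower with 12 against 31 (2.02-fold, 1.01 to 4.33), and 1.80-fold and not called under median-of-ratios scaling. Its ratio was 1.85-fold lower, not called, when marked circles were left out of the totals. The 2 epithelial transcription factor hosts compared, Cebpa (0 against 15) and Grhl2 (0 against 10), were both listed only in the terminal sac library, at least 3.92-fold and 2.61-fold lower. Airway hosts numbered 4, of which the ciliogenesis factor gene Rfx3 was lower (2 against 23, 9.01-fold, 2.23 to 78.9). The others were neither higher nor lower, with ratios of 1.28 for Dnah9 (6 against 6), 1.08 for Dnah11 (11 against 13) and 1.49 for Cfap54 (7 against 6).

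Of 14 cell-cycle hosts 0 were higher and 3 lower, with 0.766% of alveolar reads (0.668 to 0.874) against 1.151% (1.04 to 1.27) and a median of -0.65 (-0.67 at the bound). Bub1b had 6 reads against 68 over its circles (8.88-fold lower, 3.88 to 25.05), the kinesin gene Kif15 had 2 against 12 and the pocket-protein gene Rbl1 0 against 16 (at least 4.18-fold lower). The Kif15 call ended under median-of-ratios scaling and without marked circles (4.17-fold and 4.296-fold lower, intervals reaching 1), which leaves 2 hosts lower. The topoisomerase gene Top2a had 2 against 11 and was not called, and Ezh2 had 74 against 127 (1.34-fold lower, 1.002 to 1.82), also not called. The lamin gene Lmnb1, with 13 against 8, and the nuclear mitotic gene Nusap1, with 8 against 7, did not pass in the other direction.

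Of 6 Wnt hosts 3 were lower and 0 higher, or 1 and 0 of the 4 with reads in both libraries. Lrp6, a Wnt co-receptor, had 37 against 97 (2.05-fold lower, 1.39 to 3.09). With each read name counted once it had 37 against 77, 1.64-fold lower and not called. Ctnnb1 (beta-catenin) had 0 against 13 and Dvl2 0 against 47, the Dvl2 reads all few-pattern. Without marked circles 1 of 5 Wnt hosts was lower. Of 5 TGF-beta and BMP hosts the inhibitory Smad6 was higher (14 against 3) and Smad1 lower (8 against 36). None of 6 FGF, Hedgehog and Notch hosts passed, though Fgfr2, a receptor of branching epithelium, had 62 against 128 (1.62-fold lower, 1.19 to 2.23). Maml3, of a Notch coactivator, had 22 against 15, and passed without marked circles (2.05-fold higher) and under median-of-ratios scaling (2.11-fold).

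Of 5 immune hosts 2 were lower and 0 higher. Elmo1, of the engulfment machinery, had 4 against 31 (6.07-fold lower, 2.15 to 23.7), and the receptor kinase gene Mertk 4 against 19 (3.72-fold lower, 1.24 to 15.04). Mrc1, the mannose receptor, had 7 against 10. Among 3 erythroid hosts the transferrin receptor gene Tfrc was lower (0 against 16), a call fixed by the floor. Epb41 (5 against 17) and Xpo7 (24 against 18, a ratio of 1.70) were neither higher nor lower. Mesothelial markers had no listed circle in the pair, and of the cardiac list Cacna1c alone was higher, while titin (Ttn) had 10 against 8.

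Most hosts of the regulatory lists were not called, as were 859 of all 1199 hosts compared. Of 31 chromatin hosts 3 were higher (Chd4, Arid1a and Baz2b) and 3 lower (Kmt2e, Chd9 and Suz12). Suz12 had 0 alveolar reads against 12. The Chd4 reads of the alveolar library are all marked, so that 2 of 29 were higher without marked circles. Of 13 RNA-binding and splicing hosts 2 were higher, Tnrc6b and Hnrnpm, the latter with 11 alveolar reads against 0. The 2 lower were Qk with 10 against 28 and the polypyrimidine-tract binding protein gene Ptbp3 with 9 against 47 (4.09-fold lower, 1.98 to 9.50). The Qk call ended under median-of-ratios scaling (1.95-fold lower). It also ended under non-junction scaling (2.10-fold) and without marked circles (2.005-fold), where the interval reaches 1, which leaves 1 lower. Of 28 widely described circRNA hosts 0 were higher and 2 lower (Hipk3 and Csnk1g3), and the list held 7.76% of alveolar reads against 8.66%.

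**Figure D4:**
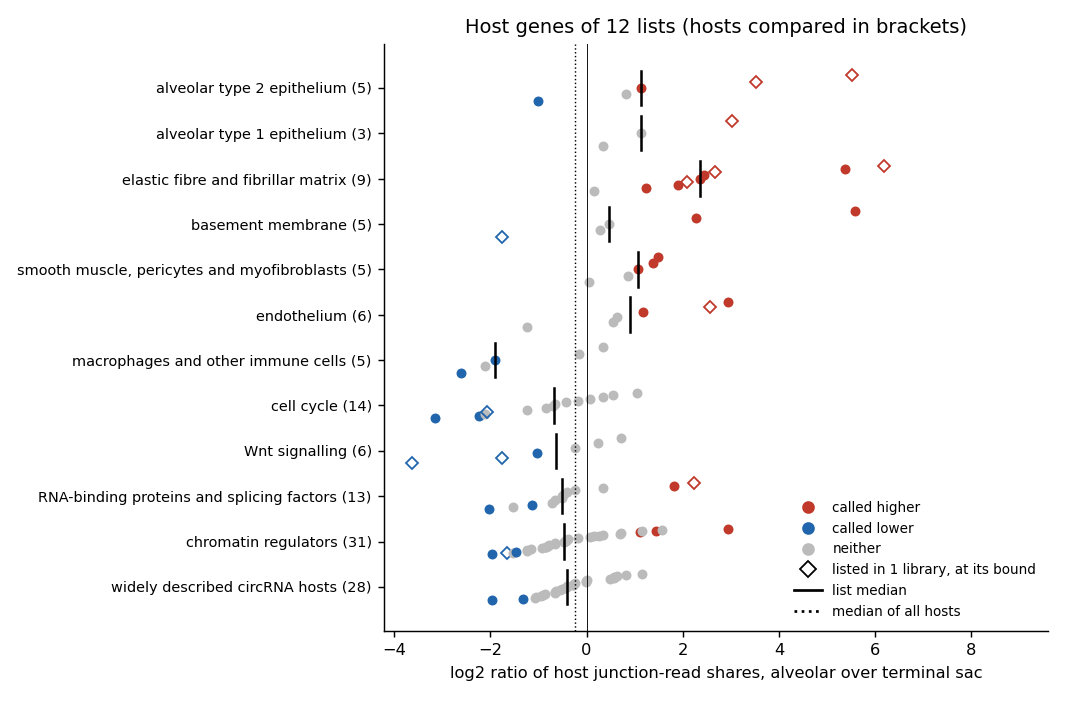
log2 ratio of host junction-read shares, alveolar over terminal sac, for each host compared in 12 gene lists. Points are hosts coloured by call, diamonds are hosts listed in 1 library drawn at their bound, bars are list medians and the dotted line is the median of all hosts; the smooth muscle bar lies right of 0 and the cell-cycle bar left of the dotted line.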

How the data were processed

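Lung total RNA of 4 stages was sequenced, 1 library each, per the labels' protocols. The deposited files list circRNAs with column names of the caller CIRI. Per the submitters' processing notes the build was mm10 and the tools were BWA, HISAT2 2.0.5, cutadapt, HTSeq and StringTie, without their roles. Reads at the junction and linear reads at its ends were deposited as whole counts, and the junction ratio as a fraction, per the file headers; alignment patterns were deposited as lists of pattern numbers, per the file headers. Other filters of the lists are not given in the sources used here. Within each library the listed reads name 1 lane. Whether the libraries shared a lane was not compared.

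Shares of listed junction reads were compared with exact conditional binomial 95% intervals, and odds ratios with Woolf's interval after adding 0.5 to each count. A circRNA not listed was set to 3 reads, a floor for its exact coordinates. List shares carry Clopper-Pearson intervals. Exons came from GENCODE M21, which holds 4647 of 4653 deposited host identifiers; a circRNA with several identifiers was counted under each. Repeats were sought in spliced transcripts. Python 3.11.15, numpy 2.4.6, pandas 2.3.3, scipy 1.17.1 and matplotlib 3.10.9 were used, and the comparison was tested on simulated data.

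The members, gene lists and rules were chosen with earlier results of these data known. Named circRNAs were those leading by the interval end nearest to 1 (15 higher and 15 lower by share, 8 and 8 by junction ratio, 10 and 10 hosts), the 10 most abundant, the 10 most abundant with an interval between 1/2 and 2, hosts called both ways, the leading 3 without a host, and list members. The leading 15 higher circles by that ranking were all listed in the alveolar library alone, so those listed in both were ranked as well, after their values were seen. Hipk3, Ttc3, Smad1, Insr, Prkce, Fbn1, Pecam1 and the further circles of named hosts were also chosen after their values were seen.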

Additional observations from a re-analysis of the deposited data

How the results depend on the processing

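Under a minimum of 20 reads 67 circles were higher and 82 lower, 72 and 107 hosts, and 18 and 116 circles by junction ratio, against 118 and 176, 145 and 195, and 36 and 197 at 10 reads; fewer features are tested there. With a minimum of 5 reads 417 were higher, since circles listed in the alveolar library alone then pass with fewer reads. Circles listed in both libraries gave 88 lower, a 3-fold rule gave 117 lower, and odds taken relative to their median (chosen after seeing the data) gave 90 higher and 75 lower. Counts kept within 1.5 times under the other alternatives: for circles, 140 and 153 by median of ratios, 124 and 166 scaled by non-junction reads, 131 and 159 scaled without the most abundant circle of either library, 117 and 168 with neighbouring junctions merged and 118 and 143 without marked circles. Of the 118 circles called higher without marked circles, 101 were also called higher in the main setting. For hosts, 166 and 160 by median of ratios turned the balance to higher, against 152 and 155 without marked circles. No named circle or host reversed. Median-of-ratios scaling ended the lower calls of the list hosts Atp8a1 (1.80-fold), Lrp6 (1.82-fold) and Qk (1.95-fold). It also ended those of Ncor1 (2.16-fold) and Kif15 (4.17-fold), with intervals that reach 1. No paired analysis was possible because each stage has 1 library. Of the listed circRNAs, 41.5% in the alveolar and 37.4% in the terminal sac library rest on 2 reads, so absence from a list says little at this depth.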
